A study of Mus musculus with 12 samples.

Results

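Chemokines are small secreted proteins that guide the movement of leukocytes, and chemokine receptors are the G protein-coupled receptors through which they act. They are sorted into CC, CXC and CX3C families by the spacing of their first cysteines. Inflammatory chemokines are induced by cytokines, interferons and microbial products and call monocytes, T cells, eosinophils or neutrophils into tissue, while homeostatic chemokines are made steadily by stroma, lymphatic vessels and epithelia. In the heart, resident macrophages, fibroblasts and endothelium are known sources, and Ccr2 marks the macrophages that derive from blood monocytes.

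The genes were taken by symbol: every Ccl, Cxcl, Ccr or Cxcr gene with a number and at most 1 further letter, together with Cx3cl1 and Cx3cr1. In all, 51 of the 17536 genes listed in the deposited table matched, of which 35 are ligands and 16 are receptors. All 51 had a count in at least 1 of the 12 libraries, but so did all 17536 genes, so this holds for any gene listed. Of the 51, 28 had a count in every library. A mean level of 1 CPM, the counts of a gene scaled to a common library size, was reached by 26. The filter on low counts kept 29 of them among 13489 genes, and tests were made on those 29.

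The libraries were made from heart RNA of outbred ICR mice aged 10 weeks, in 4 groups of 3. The AOS-FMT group has a label that joins busulfan with FMT of an AOS kind, with AOS at 10 mg/kg. The control-FMT group joins busulfan with FMT of a control kind. The busulfan group had 20 mg/kg of this alkylating chemotherapy drug and no FMT, and the control group had none of these. The labels spell out neither AOS nor FMT and give no busulfan dose for the FMT groups. The series asks how FMT affects a heart damaged by busulfan. The labels number the replicates without saying that they are separate animals, so p-values measure only the spread between these samples, which may be technical.

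Library totals lay between 11333650 and 14335688 estimated counts, and the 51 genes together took 0.0454% to 0.0648% of them. Summed levels of 9 cardiomyocyte markers, led by Myh6, were 74500 to 94400 CPM in AOS-FMT, 97000 to 102000 in control-FMT, 109000 to 132000 in busulfan and 80200 to 117000 in control libraries. The second AOS-FMT library had the highest summed levels of atrial muscle (25900 CPM), fibroblast (9690 CPM), macrophage (615 CPM) and T and NK cell markers (18.4 CPM) of all 12, and the lowest of cardiomyocyte markers. These are pieces of whole tissue, so fewer cells of a type and less RNA per cell cannot be told apart. Each log2 fold change stands with its standard error, both from edgeR's quasi-likelihood fit over all 12 libraries, and adjusted p-values are Benjamini-Hochberg values over 13489 genes.

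Sequence is shown first for 5 ligand genes: 2 neighbouring pairs with their highest mean levels in AOS-FMT hearts, Ccl6 with Ccl9 and Cxcl9 with Cxcl10, and Cxcl1, a neutrophil attractant whose groups overlapped in every comparison. Each sequence holds the 250 bases before the gene's start, from RefSeq on GRCm38.p6, 5′ to 3′ on the gene's strand. Capitals mark matches to any of 4 motifs, searched on both strands.
Ccl6, chr11:83593088-83593337, minus strand: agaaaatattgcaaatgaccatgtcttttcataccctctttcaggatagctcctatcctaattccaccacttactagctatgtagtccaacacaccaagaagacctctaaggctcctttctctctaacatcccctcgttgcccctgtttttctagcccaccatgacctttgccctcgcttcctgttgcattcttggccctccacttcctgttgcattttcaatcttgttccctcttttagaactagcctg
Ccl9, chr11:83578637-83578886, minus strand: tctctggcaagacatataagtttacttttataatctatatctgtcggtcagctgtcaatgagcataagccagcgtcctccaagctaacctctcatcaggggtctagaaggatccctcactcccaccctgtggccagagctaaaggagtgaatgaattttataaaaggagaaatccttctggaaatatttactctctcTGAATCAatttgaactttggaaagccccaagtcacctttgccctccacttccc
Cxcl9, chr5:92328080-92328329, minus strand: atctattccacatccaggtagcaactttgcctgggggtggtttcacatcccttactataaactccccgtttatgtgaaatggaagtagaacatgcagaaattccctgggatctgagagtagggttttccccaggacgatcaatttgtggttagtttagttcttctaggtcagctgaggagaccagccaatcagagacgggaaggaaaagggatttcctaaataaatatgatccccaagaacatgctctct
Cxcl10, chr5:92348890-92349139, minus strand: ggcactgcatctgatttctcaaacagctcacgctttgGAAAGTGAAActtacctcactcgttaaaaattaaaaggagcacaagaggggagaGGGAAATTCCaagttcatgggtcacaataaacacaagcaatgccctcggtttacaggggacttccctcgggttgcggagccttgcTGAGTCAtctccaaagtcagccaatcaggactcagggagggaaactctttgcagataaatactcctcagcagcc
Cxcl1, chr5:90890995-90891244, plus strand: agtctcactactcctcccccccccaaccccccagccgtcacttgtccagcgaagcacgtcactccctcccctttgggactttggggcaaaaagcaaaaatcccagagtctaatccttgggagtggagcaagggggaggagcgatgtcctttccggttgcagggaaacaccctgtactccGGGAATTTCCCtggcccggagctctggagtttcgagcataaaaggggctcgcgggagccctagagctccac

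The motifs, with N for any base, were GGGA and TTCC with NN between them for NF-kB, GAAA and GAAA with NN between them for the interferon-stimulated response element, TTC and GAA with NNN between them for the STAT-bound GAS element, and TGANTCA for AP-1. Cxcl10 held an interferon element, an NF-kB match and an AP-1 match at bases -213, -159 and -74 from its start. Ccl9 held an AP-1 match at base -53. In Cxcl1 the capitals hold 2 NF-kB matches, on opposite strands and overlapping, at bases -71 and -70. These letters were not found in the windows of Ccl6 and Cxcl9. Promoters were available for 22 of the 29 tested genes, and among them NF-kB letters stood in 2, the interferon element in 2, GAS in 1 and AP-1 in 4. Of 32851 promoters of the same length, 1.21%, 2.98%, 7.02% and 6.75% held these motifs in that order. These shares are per promoter, while a gene was counted if any of its promoters matched, so the 2 are not in like units. A match describes the letters and shows no bound site.

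Per transcript length, 3 ligands had the highest mean levels in these hearts. Ccl21a, which draws Ccr7-bearing T cells and dendritic cells along lymphatic vessels, averaged 165 ± 55.9 TPM over all 12 libraries (SD). Cxcl14, a stromal and epithelial chemokine, averaged 74 ± 19.9 TPM and Cxcl12, the stromal ligand of Cxcr4, 70.9 ± 10.7 TPM (SD, n = 12). Next came Ccl6, a Ccr1 ligand known from mouse macrophages, at 27.4 ± 8.39 TPM. Cxcl12 was at 52.9 TPM or more, above the highest Ccl6 library at 46.2 TPM, and this was the only step between neighbours in the order of 29 at which the library ranges did not overlap.

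Ccl8, Cxcl16, Ccl27a and Ccl5 followed at means of 19.1, 19, 16.5 and 11.9 TPM. The spread of Ccl8, from 3.6 to 71.9 TPM, and of Ccl5, from 1.4 to 41.6 TPM, was far wider than that of Ccl27a, from 8.95 to 22.2 TPM. The most abundant receptor was Cxcr4 at 8.81 ± 2.01 TPM, ahead of Cx3cr1 at 6.15 ± 1.34 TPM (SD, n = 12). At the low end were Cxcr3 and Cxcr6, chemokine receptors carried by T cells, at 0.671 and 0.616 TPM.

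**Figure D1:**
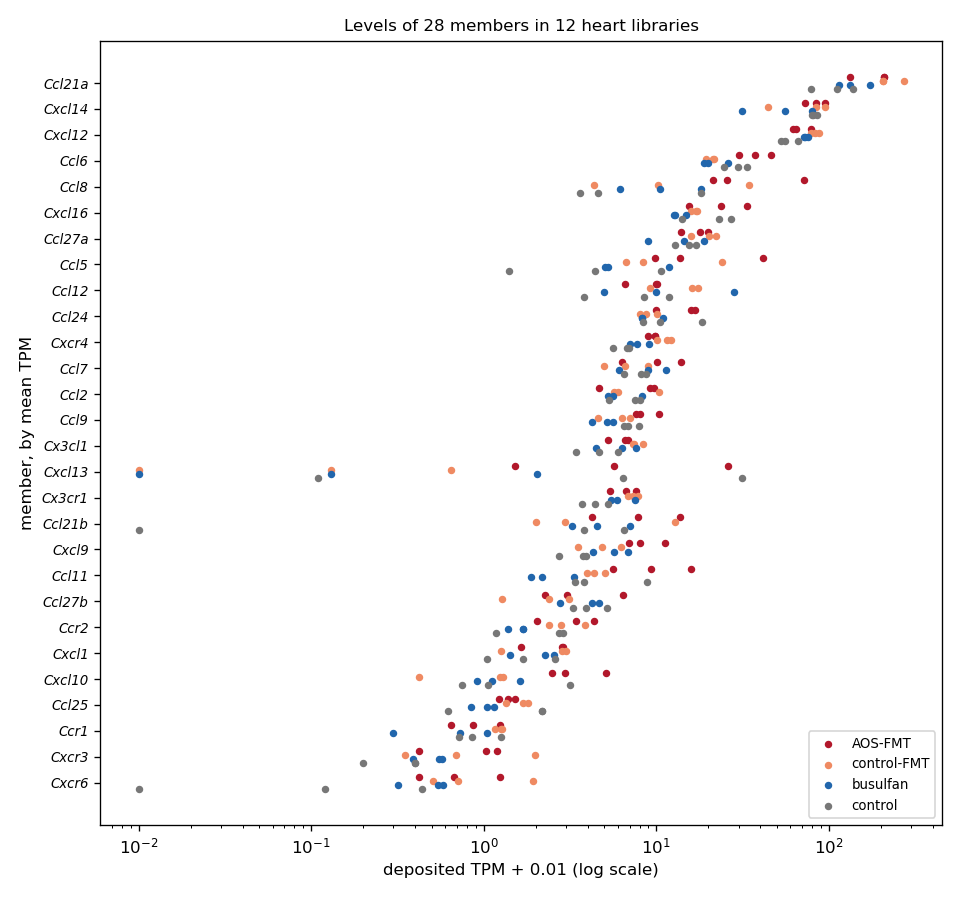
Deposited TPM of 28 of the 29 tested genes in each of 12 heart libraries, on a log axis after adding 0.01, with genes ordered by mean and libraries coloured by group. Ccl21a, Cxcl14 and Cxcl12 stand at the top, and Cxcl13, Ccl8 and Ccl5 spread widely over libraries.

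Across all 4 groups at once, edgeR called 0 of the 29 genes, against 0.104% of all genes tested. At an unadjusted p under 0.05 there were 12 of 29, against 10.2% of all genes. They were Ccl6, Cxcl9, Ccl11, Ccl9, Cxcr4, Cx3cr1, Cxcl16, Cxcl10, Ccl27b, Cx3cl1, Cxcl13 and Ccl21a, in order of p. DESeq2 called 3 of the 29 (Ccl6, Ccl11 and Cxcl9) and 289 of all genes, where edgeR called 14 of all genes. Limma-voom called 0 of the 29 and 8 of all genes. DESeq2 also called more of all genes than edgeR in each pairwise comparison. Ccl6 came highest, at place 32 of 13489 genes, with an adjusted p of 0.158 in edgeR.

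Among the inflammatory CC ligands, 9 of 14 were tested. Ccl6 (gene ID 20305, chromosome 11, 83587886 to 83593087, GRCm38.p6) had 32.7, 41.3 and 26.3 CPM in AOS-FMT hearts, 19.4, 19.2 and 17.1 CPM in control-FMT hearts, 18.8, 25.1 and 18.4 CPM in busulfan hearts, and 28.3, 28.5 and 31.6 CPM in control hearts. Every AOS-FMT and every control library lay above every control-FMT and busulfan library. Its log2 fold change was 0.85 ± 0.16 for AOS-FMT against control-FMT (adjusted p = 0.197) and 0.69 ± 0.16 for AOS-FMT against busulfan (adjusted p = 0.232). It was -0.67 ± 0.16 for control-FMT against control (adjusted p = 0.251) and -0.51 ± 0.16 for busulfan against control (adjusted p = 0.314). DESeq2 placed the first 3 of these past the threshold, with adjusted p-values of 0.00438, 0.0287 and 0.0434.

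Ccl9 lies next to Ccl6 on chromosome 11 and also acts on Ccr1 in the mouse. It had 21.7, 17 and 15.8 CPM in AOS-FMT libraries, 13.4, 15.2 and 9.58 in control-FMT, 9.83, 11.7 and 12.2 in busulfan, and 17.5, 13.8 and 20.2 in control libraries. The AOS-FMT libraries lay above all control-FMT and busulfan libraries, and the busulfan libraries below all controls. For busulfan against control the log2 fold change was -0.61 ± 0.19 (adjusted p = 0.313). Ccr1 itself was low, at 1.68, 2.45 and 1.24 CPM in AOS-FMT, 2.51, 2.54 and 2.24 in control-FMT, 2.26, 1.53 and 0.592 in busulfan and 1.8, 2.36 and 1.98 in control libraries, and AOS-FMT overlapped each other group.

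Macrophage markers were likewise above all busulfan libraries in every AOS-FMT and control library. Their summed level over 12 genes, led by C1qa, was 426 to 615 CPM in AOS-FMT, 350 to 484 in control-FMT, 319 to 404 in busulfan and 438 to 593 in control libraries. None of the 12 was at 0 in every library, which holds for any gene in the deposited table. At an unadjusted p under 0.05, 7 of 12 were higher in AOS-FMT than in busulfan, against 7.8% of all genes, though none passed adjustment. The part of these cells in the Ccl6 and Ccl9 levels was not tested.

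Ccl11 (gene ID 20292) draws eosinophils through Ccr3. Its levels were 5.62, 9.81 and 3.36 CPM in AOS-FMT, 2.67, 3.11 and 2.42 in control-FMT, 2.26, 1.44 and 1.18 in busulfan, and 3, 1.98 and 6.35 in control hearts. All AOS-FMT libraries stood above all control-FMT and busulfan libraries, while control libraries overlapped AOS-FMT. For AOS-FMT against busulfan the log2 fold change was 1.94 ± 0.47 (adjusted p = 0.234 in edgeR and 0.0178 in DESeq2). Without the second AOS-FMT library it was 1.46 ± 0.46.

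Ccl24, another eosinophil attractant, had 8.97, 9.81 and 5.92 CPM in AOS-FMT, 5.96, 5.15 and 4.83 in control-FMT, 6.18, 5.35 and 4.74 in busulfan, and 6.16, 5.85 and 12.8 in control libraries. Of their receptor Ccr3, 0 counts were summed over AOS-FMT, 4 over control-FMT, 3 over busulfan and 0 over control libraries, too few to compare at this depth.

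The next 2 ligands had 1 high AOS-FMT library. Ccl8, an agonist of Ccr8 in the mouse, had 4.44, 12.9 and 3.66 CPM in AOS-FMT, 0.784, 5.81 and 1.81 in control-FMT, 1.22, 3.56 and 1.95 in busulfan, and 1.03, 0.608 and 3.57 in control libraries. All AOS-FMT libraries were above the busulfan and control libraries, by a small margin in the lowest of them. Ccl5, a T cell and NK cell product that draws T cells and monocytes, had 1.84, 8.13 and 2.56 CPM in AOS-FMT, 1.65, 4.42 and 1.29 in control-FMT, 1.13, 2.55 and 1.01 in busulfan, and 0.342, 1.98 and 0.952 in control libraries. AOS-FMT and control overlapped. The log2 fold change of Ccl5 between them was 1.93 ± 0.72 (adjusted p = 0.459), and 0.99 ± 0.68 without the second AOS-FMT library.

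Summed T and NK cell markers, with 9 of 10 listed genes in the table and 5 tested, were 5.95 to 18.4 CPM in AOS-FMT, 3.97 to 13.6 in control-FMT, 4.35 to 7.47 in busulfan and 3.77 to 5.08 in control libraries. The second library of AOS-FMT and that of control-FMT were highest both in this sum and in Ccl5. No gene of the list that is in the table was at 0 in every library, which holds for any gene in the table. The part of these cells in the Ccl5 level was not tested.

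Ccl2, Ccl7 and Ccl12, which draw monocytes through Ccr2, showed no such order. Ccl2 had 3.86, 3.74 and 1.83 CPM in AOS-FMT, 4.23, 2.29 and 2.42 in control-FMT, 2.35, 3.65 and 2.37 in busulfan, and 2.74, 3.11 and 3.57 in control libraries. Ccl7 ranged from 2.49 to 5.45 CPM in AOS-FMT, 1.98 to 3.61 in control-FMT, 2.54 to 5.01 in busulfan and 3.34 to 3.81 in control libraries. Its log2 fold change for control-FMT against busulfan was -0.49 ± 0.33 (adjusted p = 0.999). Ccl12 had 1.26, 2 and 1.9 CPM in AOS-FMT hearts, against 2.18, 6.19 and 1.01 CPM in busulfan hearts. The log2 fold change was -0.85 ± 0.55 (adjusted p = 0.483), and 0.11 without the second busulfan library, so its direction rested on that library.

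These 3 genes lie in 1 stretch of chromosome 11 with Ccl11, Ccl8 and Ccl1 (82035577 to 82179812). For AOS-FMT against busulfan the log2 fold changes of the 5 tested neighbours, in map order, were 0.17 ± 0.34 for Ccl2, 0.05 ± 0.32 for Ccl7, 1.94 ± 0.47 for Ccl11, -0.85 ± 0.55 for Ccl12 and 1.64 ± 0.81 for Ccl8. The second chromosome 11 cluster (83525778 to 83664683) holds Ccl5, Ccl9, Ccl6, Ccl3 and Ccl4. Ccl3, a macrophage ligand of Ccr1, was below the filter, with 7 counts summed over AOS-FMT, 29 over control-FMT, 14 over busulfan and 4 over control libraries. Ccl4 had sums of 15, 20, 12 and 13 in that order.

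**Figure D2:**
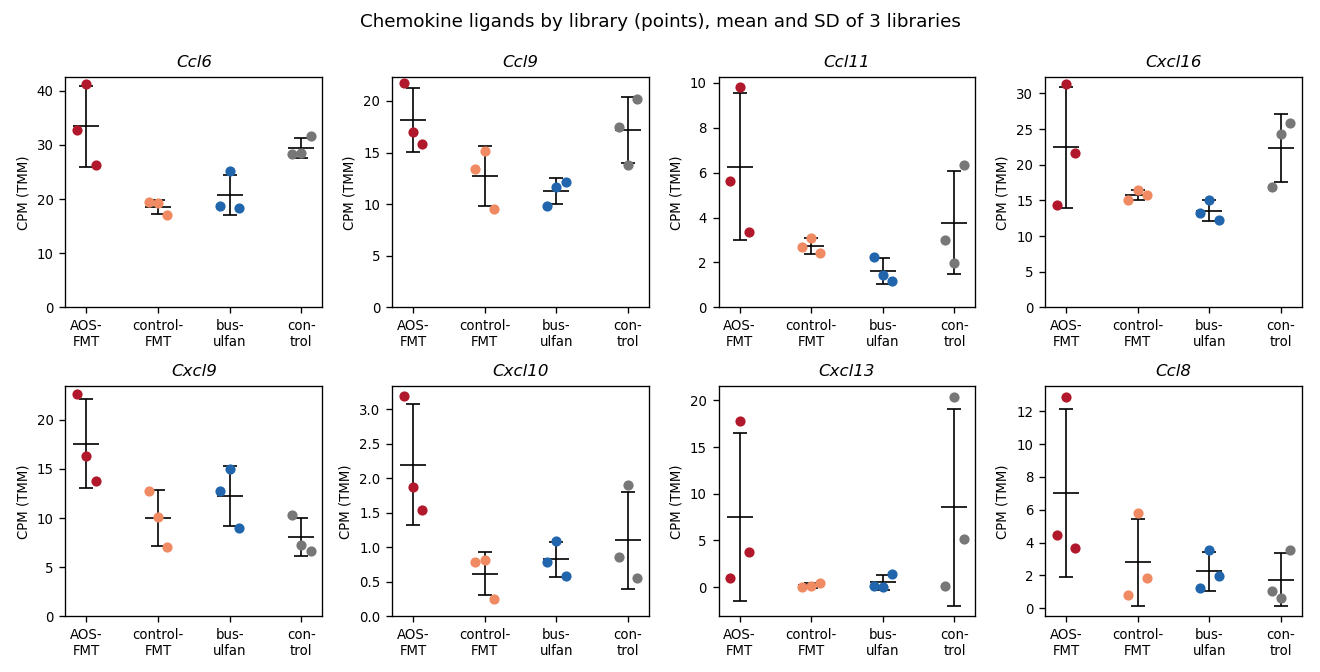
CPM of 8 ligand genes by library (points), with mean and SD of 3 libraries in each group. All AOS-FMT libraries of Ccl6, Ccl9, Ccl11 and Cxcl10 lie above all control-FMT and busulfan libraries, while Cxcl13 and Ccl8 spread widely within AOS-FMT.

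Cxcl9 and Cxcl10 are induced by interferon, attract activated T cells through Cxcr3 and lie side by side on chromosome 5 (92321331 to 92348889). Cxcl9 (gene ID 17329) had 22.6, 16.3 and 13.8 CPM in AOS-FMT hearts, 12.8, 10.1 and 7.08 in control-FMT, 12.8, 15 and 8.96 in busulfan, and 10.3, 7.22 and 6.66 in control hearts. Every AOS-FMT library was above every control-FMT and control library, and the busulfan range overlapped with both AOS-FMT and control. The log2 fold change was 1.13 ± 0.26 for AOS-FMT against control (adjusted p = 0.176 in edgeR, 0.0432 in edgeR with the atrial marker level as a covariate, 0.018 in DESeq2). It was 1.17 ± 0.30 without the second AOS-FMT library. For busulfan against control it was 0.61 ± 0.27 (adjusted p = 0.422), and 0.12 with that covariate.

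Cxcl10, whose promoter above holds 3 of the motifs, had 3.19, 1.87 and 1.54 CPM in AOS-FMT, 0.784, 0.818 and 0.259 in control-FMT, 0.783, 1.1 and 0.592 in busulfan, and 0.856, 1.9 and 0.555 in control libraries. All AOS-FMT libraries exceeded all control-FMT and busulfan libraries, and 1 control library reached the AOS-FMT range. For AOS-FMT against control-FMT the log2 fold change was 1.79 ± 0.53 (adjusted p = 0.706). Exons of Cxcl10 share 133 bases with Art3 on the opposite strand, and the counting is not stated to use strand, so reads there cannot be told apart.

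Cxcr3, the receptor of both, was at 0.419, 1.23 and 1.02 CPM in AOS-FMT, 0.705, 2.05 and 0.345 in control-FMT, 0.435, 0.594 and 0.592 in busulfan, and 0.257, 0.38 and 0.476 in control libraries. Interferon gamma, an inducer of Cxcl9, ranged from 0 to 0.323 CPM in AOS-FMT, 0.0863 to 0.245 in control-FMT and 0 to 0.0856 in control libraries, and was at 0 in all busulfan libraries. Irf1, a transcription factor of the interferon response, was at 31.9, 36.9 and 25.6 CPM in AOS-FMT, 26.7, 25.6 and 28.4 in control-FMT, 21.8, 25.5 and 24.6 in busulfan, and 27.3, 26.3 and 24.8 in control libraries.

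The neutrophil-attracting Cxcl1, Cxcl2, Cxcl3 and Cxcl5 form a cluster on chromosome 5 (90759298 to 90905938), and only Cxcl1 was tested. It had 0.839, 1.48 and 1.46 CPM in AOS-FMT, 1.49, 0.655 and 1.55 in control-FMT, 1.31, 1.44 and 0.761 in busulfan, and 0.685, 0.836 and 1.59 in control libraries, overlapping throughout. The others had 2 (Cxcl3) to 29 (Cxcl5) counts over all 12 libraries, and their receptor Cxcr2 had sums of 7, 11, 10 and 8.86 counts in AOS-FMT, control-FMT, busulfan and control. Summed neutrophil markers were 7.17 to 8.13 CPM in AOS-FMT, 5.17 to 9.33 in control-FMT, 4.14 to 5.92 in busulfan and 4.71 to 7.38 in control libraries.

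Cxcl16 is a membrane-bound ligand of Cxcr6 that also takes up oxidised lipoprotein. It had 14.3, 31.3 and 21.7 CPM in AOS-FMT, 15.1, 16.4 and 15.8 in control-FMT, 13.3, 15.1 and 12.2 in busulfan, and 16.9, 24.3 and 25.8 in control libraries. All control-FMT and busulfan libraries lay below all controls, while AOS-FMT overlapped each other group. Exons of Cxcl16 share 552 bases with Zmynd15 on the opposite strand. Cxcr6, a receptor of resident T cells, had 0.503, 1.55 and 0.804 CPM in AOS-FMT, 0.627, 2.45 and 0.863 in control-FMT, 0.435, 0.764 and 0.677 in busulfan, and 0.685, 0 and 0.159 in control libraries.

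Cxcl13 guides B cells through Cxcr5 and varied widely within groups. Its levels were 1.01, 17.8 and 3.8 CPM in AOS-FMT, 0, 0.0818 and 0.431 in control-FMT, 0.087, 0 and 1.44 in busulfan, and 0.0856, 20.4 and 5.16 in control hearts. The 2 highest libraries were 1 of AOS-FMT and 1 of control. Summed atrial muscle markers (5 of 5 tested, led by Nppa) were 1830, 25900 and 11800 CPM in AOS-FMT, 647, 415 and 4080 in control-FMT, 259, 1070 and 3100 in busulfan, and 1980, 18100 and 13600 in control libraries. The 4 libraries with the highest Cxcl13 were the 4 with over 10000 CPM of atrial markers, and the part of atrial tissue in the Cxcl13 level was not tested. B cell markers did not run with it, at 23.9 to 29 CPM in AOS-FMT, 19.4 to 28.3 in control-FMT, 24.7 to 26.8 in busulfan and 22.9 to 24.2 in control libraries.

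**Figure D3:**
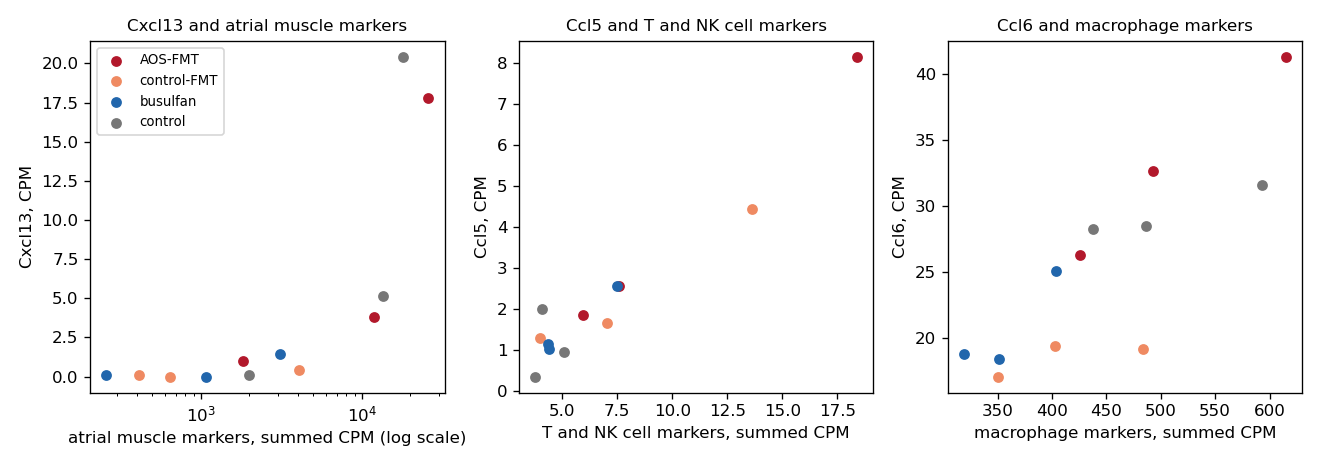
Levels of Cxcl13, Ccl5 and Ccl6 (CPM, vertical axes) against summed levels of atrial muscle, T and NK cell, and macrophage markers (CPM, horizontal axes, the first on a log scale) in 12 libraries coloured by group. The 4 libraries highest in Cxcl13 are the 4 at the right of the atrial axis. All control-FMT and busulfan libraries lie below all AOS-FMT and control libraries in Ccl6.

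Cxcl12, the stromal signal that holds Cxcr4-bearing cells in tissue, was the most counted of the 51 genes. It had 214, 142 and 168 CPM in AOS-FMT, 250, 216 and 214 in control-FMT, 225, 212 and 217 in busulfan, and 188, 144 and 199 in control libraries. Control-FMT and busulfan libraries were all above the controls, and control-FMT libraries all above AOS-FMT, at the edge by less than 1 CPM. On the log2 scale the fold change was -0.38 ± 0.16 for AOS-FMT against control-FMT (adjusted p = 0.792) and -0.32 ± 0.15 for AOS-FMT against busulfan (adjusted p = 0.376).

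Cxcr4 had 10.5, 11.6 and 11.4 CPM in AOS-FMT, 13.8, 14.6 and 11.9 in control-FMT, 10.2, 11.6 and 8.63 in busulfan, and 10.6, 7.67 and 7.93 in control libraries. All control-FMT libraries stood above all others of the 12. Its log2 fold change was 0.62 ± 0.16 for control-FMT against control (adjusted p = 0.295) and 0.41 ± 0.16 for control-FMT against busulfan (adjusted p = 0.999). Ackr3, the scavenging receptor of Cxcl12, was at 159, 122 and 139 CPM in AOS-FMT, 128, 94.8 and 117 in control-FMT, 109, 151 and 123 in busulfan, and 128, 92.5 and 102 in control libraries, with overlap between AOS-FMT and each other group.

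The CX3C pair ran in the same order of group means as Cxcr4 among the FMT and control groups. Cx3cl1, a membrane-anchored chemokine of endothelium and neurons, had 15, 11.6 and 14.3 CPM in AOS-FMT, 16.5, 19.1 and 16.1 in control-FMT, 11, 15.1 and 17.4 in busulfan, and 9.76, 12.7 and 12.4 in control libraries. Control-FMT lay above AOS-FMT and control throughout, and its log2 fold change for AOS-FMT against control-FMT was -0.34 ± 0.17 (adjusted p = 0.797). Cx3cr1, its receptor on resident macrophages and patrolling monocytes, had 18.3, 14.1 and 16.7 CPM in AOS-FMT, 19, 21.3 and 16.9 in control-FMT, 16.4, 20.4 and 14.6 in busulfan, and 12.8, 12.9 and 13.2 in control hearts. Every control library lay below every other library. Exons of Cx3cr1 share 78 bases with Gm33858 on the opposite strand. Log2 fold changes of Cx3cr1 were 0.55 ± 0.15 for control-FMT against control (adjusted p = 0.314) and 0.40 ± 0.15 for busulfan against control (adjusted p = 0.351).

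Cx3cr1 and Ccl6 are both genes of macrophages, yet their group orders differed. Ccl6 averaged 33.4 ± 7.52, 18.6 ± 1.28, 20.8 ± 3.78 and 29.5 ± 1.82 CPM in AOS-FMT, control-FMT, busulfan and control hearts, and Cx3cr1 16.4 ± 2.09, 19.1 ± 2.18, 17.2 ± 2.98 and 13 ± 0.171 CPM (SD, n = 3 each). The difference between the 2 genes was not tested.

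**Figure D4:**
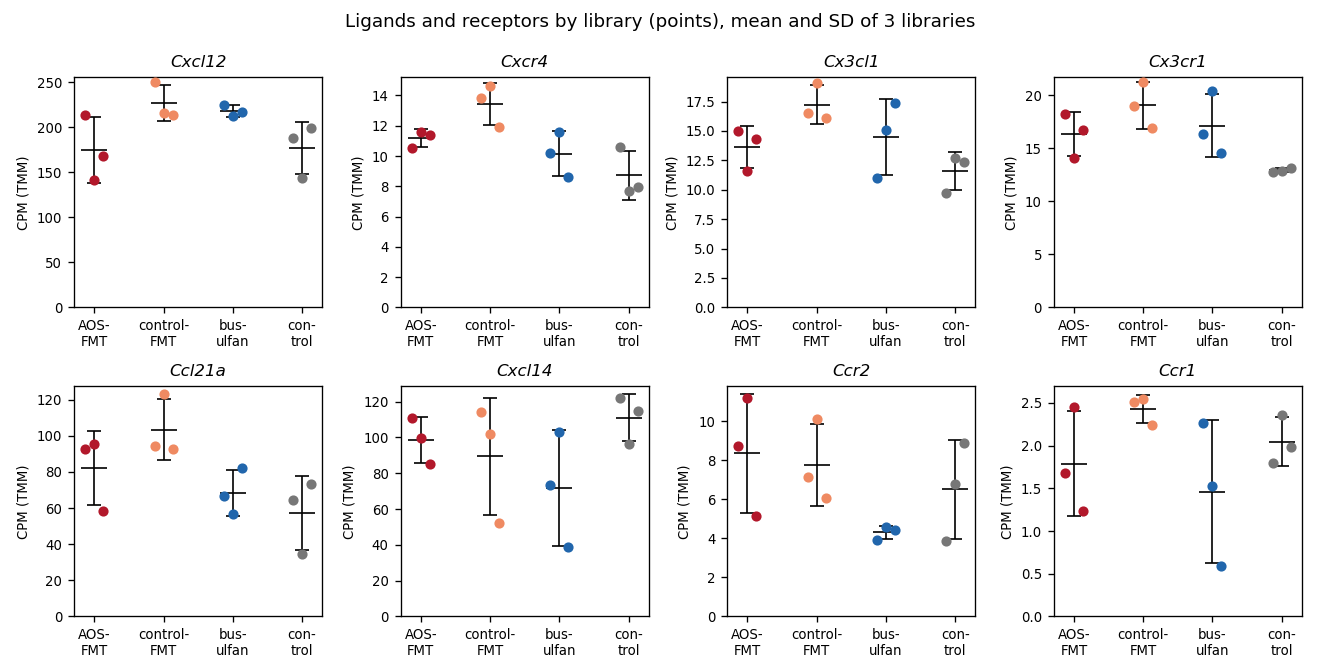
CPM of 4 ligands and 4 receptors by library (points), with mean and SD of 3 libraries in each group. All control libraries of Cx3cr1 lie below the other 9, all control-FMT libraries of Cxcr4 above the other 9, and the groups of Cxcl14 overlap.

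Ccr2, the receptor of blood-derived monocytes, had 8.72, 11.2 and 5.12 CPM in AOS-FMT, 7.13, 10.1 and 6.04 in control-FMT, 3.92, 4.58 and 4.4 in busulfan, and 3.85, 6.76 and 8.88 in control hearts. All libraries of both FMT groups were above all busulfan libraries, and the controls spanned that gap. The log2 fold change for control-FMT against busulfan was 0.85 ± 0.33 (adjusted p = 0.999). Summed monocyte markers, 7 of 8 tested and led by Fn1, were 282 to 360 CPM in AOS-FMT, 113 to 194 in control-FMT, 96.4 to 181 in busulfan and 80.6 to 233 in control libraries. One gene of the list, Nr4a1, which many cells also induce as an immediate-early gene, had 180, 164 and 193 CPM in AOS-FMT, 8.78, 9.16 and 59 in control-FMT, 10.4, 13.9 and 60.4 in busulfan, and 13.6, 24.2 and 34.7 in control libraries. Without it, a choice made after its values were seen, the sums overlapped, at 102 to 196 CPM in AOS-FMT, 104 to 158 in control-FMT, 86 to 120 in busulfan and 67 to 209 in control libraries. Most of each such sum was Fn1, so it mainly gives the level of that gene. Fn1 had 92.1, 171 and 118 CPM in AOS-FMT, 95.9, 140 and 127 in control-FMT, 78.6, 99.6 and 110 in busulfan, and 54.3, 186 and 87.6 in control libraries. The part of monocytes in the Ccr2 level was not tested.

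The 16 receptors summed to 50.6, 54.1 and 43.9 CPM in AOS-FMT, 50.4, 63.7 and 44.3 in control-FMT, 41.3, 47.4 and 34.4 in busulfan, and 37, 37.6 and 39.6 in control libraries, so both FMT groups lay above control.

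Of the homeostatic CC ligands, 5 of 9 were tested, and 4 of the 29 tested genes have a near copy elsewhere. Ccl21a and Ccl21b have coding sequences of 399 bases in GENCODE M21 that differ at 2 positions, T84A and C194T, with Ccl21a first and positions counted from 1 at the first coding base. The windows below hold bases 64 to 104 and 174 to 214 of each coding sequence, and the capital marks the differing base, to show how few reads can tell them apart.
Ccl21a, bases 64 to 104: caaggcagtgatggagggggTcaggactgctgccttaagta
Ccl21b, bases 64 to 104: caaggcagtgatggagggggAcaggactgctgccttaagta
Ccl21a, bases 174 to 214: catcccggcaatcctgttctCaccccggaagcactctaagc
Ccl21b, bases 174 to 214: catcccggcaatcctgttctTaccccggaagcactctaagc

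Ccl21b has another gene, Gm10591, at 100% identity, and Ccl21c and Ccl21d had the same deposited values in each library. Single values of this family are therefore uncertain, and the sum of the 4 was also taken. Ccl21a alone had 92.5, 95.3 and 58.4 CPM in AOS-FMT, 94.3, 123 and 92.8 in control-FMT, 66.8, 56.7 and 81.9 in busulfan, and 64.5, 34.3 and 73.4 in control libraries. Summed over Ccl21a to Ccl21d, levels were 98.2, 98.7 and 60.1 CPM in AOS-FMT, 96.7, 129 and 95.8 in control-FMT, 69.5, 58.9 and 84.9 in busulfan, and 68.1, 35.8 and 75.4 in control libraries. Control-FMT libraries lay above all busulfan and control libraries by both measures.

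Markers of lymphatic endothelium, a source of Ccl21a, were led by Prox1 and included Lyve1, which is also on the macrophage list. Their sums overlapped between all groups, at 131 to 148 CPM in AOS-FMT, 117 to 147 in control-FMT, 121 to 147 in busulfan and 108 to 166 in control libraries. For control-FMT against control, 2 of 6 markers (Flt4 and Reln) were higher at an unadjusted p under 0.05, against 4.46% of all genes, and 1 (Lyve1) was lower, against 3.74%. Reln had 3.77, 3.81 and 4.61 CPM in AOS-FMT, 2.74, 3.27 and 4.57 in control-FMT, 2.7, 2.88 and 2.45 in busulfan, and 1.97, 1.82 and 2.46 in control libraries, so both FMT groups lay above control. The part of lymphatic vessels in the Ccl21a level was not tested. Ccr7, the receptor of Ccl21 and Ccl19, was below the filter, with 36 counts summed over AOS-FMT, 18 over control-FMT, 10 over busulfan and 7 over control libraries, and 23 of the 36 came from the second AOS-FMT library. Ccl19 had sums of 50.65, 16.86, 3.8 and 25.56 estimated counts in the same groups.

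Ccl27b, known with Ccl27a from skin as a Ccr10 ligand, had 3.61, 5.29 and 3.66 CPM in AOS-FMT, 2.27, 3.35 and 2.42 in control-FMT, 2.87, 6.19 and 3.72 in busulfan, and 4.11, 5.47 and 6.9 in control libraries. Its log2 fold change was -1.03 ± 0.31 for control-FMT against control (adjusted p = 0.4), -0.67 ± 0.32 for control-FMT against busulfan (adjusted p = 0.999) and -0.39 ± 0.30 for AOS-FMT against control (adjusted p = 0.757). Ccl27a had 3.69, 4.65 and 3 CPM in AOS-FMT, 4.55, 3.44 and 3.8 in control-FMT, 1.91, 3.99 and 3.13 in busulfan, and 3.51, 3.04 and 4.68 in control libraries, with overlap throughout. Both have a near copy, Gm13306, at 99.3% (Ccl27a) and 100% (Ccl27b) identity, and the sum of both was 6.65 to 9.94 CPM in AOS-FMT, 6.21 to 6.82 in control-FMT, 4.79 to 10.2 in busulfan and 7.62 to 11.6 in control libraries.

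Ccl25, a gut and thymus ligand of Ccr9, was at 0.755, 0.904 and 0.658 CPM in AOS-FMT hearts, against 1.54, 1.14 and 0.397 CPM in control hearts. Its log2 fold change was -0.39 ± 0.46 (adjusted p = 0.854). Exons of Ccl25 share 204 bases with Elavl1 on the opposite strand, where reads cannot be told apart. Cxcl14 had 111, 99.5 and 85.3 CPM in AOS-FMT, 114, 102 and 52.4 in control-FMT, 73.5, 103 and 38.6 in busulfan, and 122, 96.4 and 115 in control libraries, and no group stood clear of another.

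For AOS-FMT against busulfan, edgeR called 0 of 29 genes, against 0.0445% of all genes, and limma-voom called 0. DESeq2 called Ccl11 and Ccl6 among its 131 calls over all genes, where edgeR made 6. At an unadjusted p under 0.05, 7 of 29 were higher in AOS-FMT, among them Ccl11, Ccl6, Ccl9, Ccr2, Cxcl10 and Cxcl16, against 7.8% of all genes in that direction, and 0 were lower, against 5.85%. In 6 of 29 all AOS-FMT libraries lay above all busulfan libraries, against 10.3% of all genes, and in 0 all lay below, against 10.9%. The median log2 fold change was 0.52 over the 29 and 0 over all genes. The genes at an unadjusted p under 0.05 numbered 4 without the second AOS-FMT library, 11 without the third, and 11 in DESeq2. They numbered 7 with the atrial covariate, under which edgeR called 0 of all genes. The lowest edgeR adjusted p among the 29 was then 0.862, against 0.232 in the main fit.

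Markers of liver, fibroblasts and cardiomyocytes moved in the same comparison. Of liver markers, led by Trf, 8 of 9 were higher at an unadjusted p under 0.05, against 7.8% of all genes. Their median log2 fold change was 2.69, with sums of 110, 141 and 618 CPM in AOS-FMT, against 50.4 to 71.6 CPM in busulfan libraries. Of fibroblast markers, 7 of 8 were higher, against the same 7.8%, with a median of 0.69. Their sums were 5030 to 9690 CPM in AOS-FMT, against 3670 to 4980 CPM in busulfan libraries. Of cardiomyocyte markers, 7 of 9 were lower, against 5.85% of all genes, with a median of -0.51. Of mural cell markers, 0 of 8 were higher or lower at that p. Of endothelial markers, 1 of 7 was higher and 0 were lower. None of these passed adjustment, and their part in the chemokine levels was not tested.

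For AOS-FMT against control-FMT, the comparison of the 2 kinds of FMT, edgeR called 0 of 29, against 0.0297% of all genes, and limma-voom called 0. DESeq2 called Ccl6 among its 32 calls over all genes, where edgeR made 4. Unadjusted, 8 of 29 were higher in AOS-FMT (the inflammatory Ccl6, Ccl9, Ccl11, Ccl24, Cxcl9 and Cxcl10, with Cxcl13 and Cxcl16), against 3.88% of all genes, and 1, Cxcl12, was lower, against 2.35%. In 7 of 29 AOS-FMT lay wholly above control-FMT, against 6.52% of all genes, and in 3 (Cx3cl1, Cxcl12 and Cxcr4) wholly below, against 7.29%. The median log2 fold change was 0.14 over the 29 and 0 over all genes. The 9 genes at an unadjusted p under 0.05 became 4 without the second AOS-FMT library and 5 without the first or the third control-FMT library. They became 7 with the atrial covariate, under which edgeR called 0 of all genes. The lowest edgeR adjusted p among the 29 was then 0.392, against 0.197 in the main fit.

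For AOS-FMT against control, edgeR called 0 of 29, against 0.0815% of all genes, and limma-voom called 0. DESeq2 called Cxcl9 among its 122 calls over all genes, where edgeR made 11. With the atrial covariate, edgeR called Cxcl9 among 24 of all genes. Unadjusted, 5 of 29 were higher (Ccl5, Ccl8, Cx3cr1, Cxcl9 and Cxcr4), against 5.43% of all genes, and 0 were lower, against 3.44%. In 4 of 29, among them Ccl8, Cx3cr1 and Cxcl9, all AOS-FMT libraries lay above all controls, against 6.63% of all genes, and in 0 all lay below, against 3.8%. The median was 0.23 over the 29 and -0.01 over all genes. The 5 became 2 without the second AOS-FMT library, 3 without the first library of control-FMT or busulfan or the first or second of control, 3 in a fit of these 2 groups alone, and 8 when scaled by library size alone.

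For control-FMT against busulfan, edgeR called 0 of 29, as it did among all genes (0%), and DESeq2 and limma-voom also called 0 of the 29. Unadjusted, 3 of 29 were higher (Ccl21a, Ccr2 and Cxcr4), against 1.76% of all genes, and 0 were lower, against 0.89%. Control-FMT lay wholly above busulfan in 4 of 29, these 3 and Ccl11, against 5.41% of all genes, and wholly below in 0, against 6.58%. The median was 0.18 over the 29 and 0 over all genes. Of the 29, 1 was at an unadjusted p under 0.05 without the first or the second control-FMT library.

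Set against control, control-FMT also gave 0 of 29 calls in edgeR (0% of all genes) and in limma-voom. DESeq2 called Ccl6 among its 92 calls over all genes. Here 7 of 29 were higher at an unadjusted p under 0.05 (Ccl21a, Cx3cl1, Cx3cr1, Cxcl12, Cxcr3, Cxcr4 and Cxcr6), against 4.46% of all genes, and 5 were lower (Ccl24, Ccl27b, Ccl6, Ccl9 and Cxcl13), against 3.74%. The 3 CXC receptors tested were all on the higher side. In 5 of 29 (Ccl21a, Cx3cl1, Cx3cr1, Cxcl12 and Cxcr4) control-FMT lay wholly above control, against 7.16% of all genes, and in 3 (Ccl27b, Ccl6 and Cxcl16) wholly below, against 4.71%. The median was 0.24 over the 29 and -0.01 over all genes. The 12 became 7 without the second control-FMT library and 5 with the atrial covariate.

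For busulfan against control, edgeR called 0 of 29, against 0.0593% of all genes. DESeq2 and limma-voom also called 0 of the 29, while DESeq2 called 123 of all genes. Unadjusted, 2 of 29 were higher (Cx3cr1 and Cxcl9), against 5.54% of all genes, and 5 were lower (Ccl11, Ccl6, Ccl9, Cxcl13 and Cxcl16), against 5.78%. Busulfan lay wholly above control in 2 of 29 (Cx3cr1 and Cxcl12), against 7.74% of all genes, and wholly below in 3 (Ccl6, Ccl9 and Cxcl16), against 6.38%. The median was -0.15 over the 29 and -0.01 over all genes. The 7 became 11 without the first control library and 3 with the atrial covariate. The 6 comparisons share groups, so their values for a gene are not independent.

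Other genes of the pathway were read from lists of related genes. Of 6 tested atypical and other chemokine-binding receptors, 0 passed adjustment in any comparison, and 2 were higher in AOS-FMT than in busulfan at an unadjusted p under 0.05, against 7.8% of all genes. These were Ackr4, a scavenger of Ccl19, Ccl21 and Ccl25, at 5.79, 9.94 and 7.39 CPM in AOS-FMT and 3.05, 4.16 and 6.26 CPM in busulfan libraries, and Ccrl2, a chemerin-binding receptor, at 9.14, 10.3 and 10.1 CPM in AOS-FMT and 7.31, 8.06 and 7.27 CPM in busulfan libraries. The ranges of Ackr4 overlapped and those of Ccrl2 did not.

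A list of chemokines and related attractants with other symbols had 4 genes tested (Pf4, Ppbp, Rarres2 and Mif), and it gave 0 calls. Pf4, made by platelets and also by macrophages, had 21.9, 24.7 and 17.7 CPM in AOS-FMT, 17.6, 13.6 and 14.7 in control-FMT, 11.6, 15.4 and 13.4 in busulfan, and 19.9, 32.7 and 30.3 in control libraries. All busulfan and control-FMT libraries lay below all controls. Its log2 fold change for busulfan against control was -1.04 ± 0.19 (adjusted p = 0.141). Ppbp, the other platelet chemokine, had 1.17, 4.07 and 2.05 CPM in AOS-FMT, 1.65, 1.06 and 1.98 in control-FMT, 2.26, 0.679 and 1.1 in busulfan, and 1.63, 19.5 and 5.47 in control libraries.

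Of 21 receptor signalling genes, 16 inducers and NF-kB feedback genes and 11 proteases and glycan enzymes tested, 0 passed adjustment in any of the 6 comparisons. For AOS-FMT against busulfan, 4, 5 and 3 of them were higher at an unadjusted p under 0.05, against 7.8% of all genes, and 0 were lower, against 5.85%, with median log2 fold changes of 0.22, 0.21 and 0.21. Il1b, a cytokine that induces many inflammatory chemokines, had 1.68, 5.03 and 4.46 CPM in AOS-FMT, 0.314, 0.818 and 0.345 in control-FMT, 0.696, 0.509 and 0.254 in busulfan, and 0.77, 2.2 and 2.14 in control libraries. Tnf, another inducer, had 0.503, 0.71 and 0.292 CPM in AOS-FMT, 1.1, 1.55 and 1.9 in control-FMT, 1.83, 0.764 and 0.93 in busulfan, and 0.856, 0.608 and 2.14 in control libraries. For Il1b all AOS-FMT libraries were above all control-FMT and busulfan libraries, and for Tnf all were below them.

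The 22 genes under the filter had totals from 1 count over 12 libraries (Ccl1, Ccr4 and Ccr8) to 96.87 (Ccl19), and no comparison was made among them. Ccl28, a mucosal ligand of Ccr10, had 28 counts over AOS-FMT, 5 over control-FMT, 21 over busulfan and 2 over control libraries, of which 18 and 19 came from the second AOS-FMT and the second busulfan library. Cxcr5, a chemokine receptor of B cells, had sums of 13, 11, 10 and 9 counts in those groups, and the dendritic cell ligands Ccl17 and Ccl22 had 8 and 20 counts in all.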

How the data were processed

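Heart RNA of 12 libraries was measured, 3 in each of 4 groups. The authors deposited estimated counts and TPM per gene, per the file headers; 94.7% to 95.3% of the count values in a library were whole within 1e-09. The submitters' processing notes name Bowtie 0.12.2 and mm10. How reads were assigned to genes, with which annotation and strand setting, is not given in the sources used here. Another 24 columns of deposited values were not used. Estimated counts were rounded, filtered with filterByExpr (13489 genes left), scaled by TMM (factors 0.908 to 1.08) and fitted with edgeR 4.0.16 (robust quasi-likelihood, R 4.3.3), all 12 libraries in 1 fit with group as the term. Calls were made at 0.05 after Benjamini-Hochberg adjustment across the 13489 genes. The common biological coefficient of variation came to 18.6%; for AOS-FMT against busulfan the standard error of log2 fold changes had a median of 0.163. DESeq2 1.42.0, limma-voom (limma 3.58.1), other scalings and filters, a replicate block, an atrial covariate and leaving out each library were alternatives. TPM was used only for levels between genes. CPM are TMM-scaled. The procedure was tested on simulated data.

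The genes, the role and marker lists, and the naming rule were chosen with earlier results of these data known. The rule names the 8 highest by TPM, the 8 smallest omnibus p-values, called genes, and per comparison the 2 smallest p-values in each direction; further genes were named after their values were seen. Symbols of 5 more genes in the RefSeq table of GRCm38.p6 fit the symbol rule (Ccl20, Ccl26, Cxcl11, Cxcl15 and Cxcr1). They have no row in the deposited table and were not analysed here. Of the tested genes, 1 counts in the totals and is not reported here by itself. Near copies were found with BLAST 2.17.0 among GENCODE M21 coding sequences, at 95% identity or more over 50% or more of the sequence. Replicate pairs of a group differed by 8.91 to 73.1 chi-square per degree of freedom, so no library was counted as a repeat of another.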

Additional observations from a re-analysis of the deposited data

How the results depend on the processing

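Among the chemokine and receptor genes tested, edgeR called 0 in every comparison under size factors by relative log expression or library size alone (29 tested), no filter (51), a mean of at least 1 CPM (26), fits of only 2 groups (24 to 29), and leaving out each library in turn (31 to 34 tested, lowest and highest counts 0 and 0). DESeq2 called 3 over all groups, 2 for AOS-FMT against busulfan, and 1 each for AOS-FMT against control-FMT, AOS-FMT against control and control-FMT against control. The replicate block called 1 gene, Cxcl9, over all groups and for AOS-FMT against control (adjusted p = 0.0195). The atrial covariate called 1, Cxcl9, for AOS-FMT against control (adjusted p = 0.0432). Of all genes in that comparison, 25 were called with the block and 24 with the covariate, against 11 in the main fit. The covariate took such calls from 6 to 0 for AOS-FMT against busulfan and from 4 to 0 for AOS-FMT against control-FMT. It took them from 8 to 1 for busulfan against control and from 0 to 4 for control-FMT against control. The causes were not tested. The block raised the calls over all groups from 14 to 30 among all genes, and the genes of the 29 at an unadjusted p under 0.05 from 7 to 12 for AOS-FMT against busulfan. Correlations of same-numbered libraries ran from -0.16 to 0.45, with 10 of 18 over 0.1, among them all 6 of number 1 (0.12 to 0.45), against 8 of 36 differently numbered pairs. Since 8 same-numbered pairs were not over 0.1 and the labels name no pairing, the numbers were not taken to pair the samples. Of the 51 genes, 28 had a count in all 12 libraries and 26 a mean of at least 1 CPM. Of the named fold changes, 1 reversed: Ccl12 for AOS-FMT against busulfan was 0.11 without the second busulfan library (range -1.27 to 0.11 over libraries left out). The others kept their direction in all alternatives run, except that Ccl25 for AOS-FMT against control ranged from -0.79 to 0. Over the libraries left out, these others moved by over 1.5 times: Ccl5 (0.99 to 2.67) and Ccl27b (-0.61 to -0.2) for AOS-FMT against control, Ccl27b (-0.88 to -0.3) and Ccl7 (-0.74 to -0.25) for control-FMT against busulfan, Cxcl12 for AOS-FMT against busulfan (-0.5 to -0.19) and against control-FMT (-0.55 to -0.25), and Cx3cr1 for busulfan against control (0.26 to 0.51). Library size alone moved the median of all genes to 0.14 for AOS-FMT against busulfan.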
